A study of Homo sapiens with 6 samples.

Results

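RNA sequencing compared 9 genes of the complement system between a control and an SRRM4 KO line of UE7T-9 cells. These were the classical pathway protease genes C1R and C1S, the central component gene C3, and the alternative pathway protease genes CFB and CFD. The others were the soluble regulator gene CFI and the membrane regulator genes CD46, CD55 and CD59. All 9 were chosen by gene symbol among 58735 genes in the count table. Of the 9, 8 passed the filter on low counts that left 15341 genes for testing. UE7T-9 is a human bone marrow mesenchymal stem cell line. The control group was 3 libraries of wild-type UE7T-9 cells, and the SRRM4 KO group was 3 libraries of UE7T-9 cells that had received a lentiviral CRISPR vector against SRRM4, a splicing regulator, followed by puromycin selection and dilution to single cells. The knockout libraries therefore come from a selected, cloned line. The sources used here do not say whether the controls had received a vector or selection. An effect of SRRM4 and one of vector, selection or clone therefore cannot be told apart. The study describes the line as having reduced SRRM4 protein and not a complete loss of it. The labels do not say that the 3 libraries of a group came from separate cultures, so p-values here measure the spread between libraries, which may be technical.

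SRRM4 itself had 0 counts in all 6 libraries, so these counts give no check of the knockout. The libraries held between 21496117 and 23868323 counts, at which 3 counts equal 0.123 to 0.139 CPM, the count scaled to a common library size. Control replicate 1 stood apart from the other controls, with a chi-square per degree of freedom of 20.9 and 21.4 against them, where control replicates 2 and 3 differed from each other by 5.44. SRRM4 KO replicate 3 was at 9.13 and 8.57 against the other SRRM4 KO libraries, which differed from each other by 4.93. The mesenchymal markers NT5E, ENG, THY1, CD44, ITGB1 and ALCAM were all detected, with a summed level of 2734 to 3056 CPM in the controls and 3423 to 3596 CPM in the SRRM4 KO cells. They did not move together: THY1 was 5.38-fold lower (log2 fold change -2.43, edgeR adjusted p = 3.63e-10) and ENG was lower (-0.34), whereas CD44 (1.39), NT5E (0.52) and ALCAM (0.51) were higher and ITGB1 did not pass the test. Of 10 haematopoietic and macrophage markers, 3 were tested and none passed the test, where 41.6% of all tested genes did. The summed level of the 10 was 20.4 to 22.1 against 18.9 to 22.4 CPM, with PTPRC at no more than 2 counts and LYZ, AIF1 and SPI1 at 0. Hepatocyte markers summed to 4.47 to 5.83 CPM in the controls and 2.11 to 3.09 CPM in the SRRM4 KO cells, with APOA1, FGA, FGB and HNF4A at 0, and SERPINA1, the only 1 of the 9 tested, was lower (log2 fold change -0.99). Its part in the complement results was not tested.

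Complement is a cascade of plasma and cell-surface proteins in which one protease activates the next. In the classical pathway, C1r activates C1s inside the C1 complex, and C1s then cuts C4 and C2, which together form an enzyme that cuts C3. The alternative pathway uses factor B, activated by factor D, for the same step, whereas factor I degrades the products on cells with the help of cofactors. CD46 is such a cofactor, CD55 speeds the decay of the C3-cutting enzymes, and CD59 blocks assembly of the membrane attack complex, so that host cells are spared. The liver makes most circulating complement, and fibroblasts and other stromal cells also secrete C1r and C1s.

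Of the 9 genes, 5 encode trypsin-type serine proteases, and the coding sequence around the catalytic serine shows this shared feature, which the choice of genes did not use. The stretch is given below for each of them on the coding strand, 5′ to 3′, from the principal transcript in GENCODE 29 (GRCh38), with the active-site serine motif in capitals. In C1R and C1S it lies in the last exon, at chr12:7080667-7080711 on the minus strand and chr12:7070457-7070501 on the plus strand. In CFI it lies in exon 13 at chr4:109741049-109741093 on the minus strand, and in CFB and CFD it is split by an intron, between exons 16 and 17 in CFB (chr6:31951458-31951583, plus strand) and between exons 4 and 5 in CFD (chr19:861942-863121, plus strand).
C1R: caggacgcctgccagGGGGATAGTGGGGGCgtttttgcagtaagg
C1S: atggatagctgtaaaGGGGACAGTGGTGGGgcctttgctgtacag
CFB: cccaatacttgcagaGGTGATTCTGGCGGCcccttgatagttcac
CFD: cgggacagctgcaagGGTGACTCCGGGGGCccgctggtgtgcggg
CFI: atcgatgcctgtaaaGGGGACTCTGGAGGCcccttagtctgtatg
Across the genome, 116 of 19669 protein-coding genes carried this motif in frame, or 0.59%. Among the related complement proteases outside the 9, MASP1 and MASP2 carried it and C1RL and C2 did not.

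Among the 8 genes tested in the main fit, which left out CFI, the largest differences between the cells were in the classical pathway proteases. C1R and C1S fell in the SRRM4 KO cells, CD55 rose by a smaller amount, and C3, CFB, CFD, CD46 and CD59 did not pass the test. Thus 3 of the 8 tested genes passed an adjusted p of 0.05, 1 higher and 2 lower, in the quasi-likelihood test of edgeR, with Benjamini-Hochberg adjustment across all tested genes. The background was wide: 41.6% of all tested genes passed, 20.7% higher and 20.9% lower, so the share of the complement genes is close to that of any gene. Only C1R and C1S also passed a log2 fold change beyond 1, which 7.14% of all tested genes did in the lower direction and 5.45% in the higher. In 3 of the 8 genes the control and SRRM4 KO libraries did not overlap in CPM, which held for 51.8% of all tested genes (25.9% higher and 25.9% lower in the SRRM4 KO cells). The median log2 fold change of the 8 genes was -0.06, beside -0.01 for all tested genes.

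**Figure D1:**
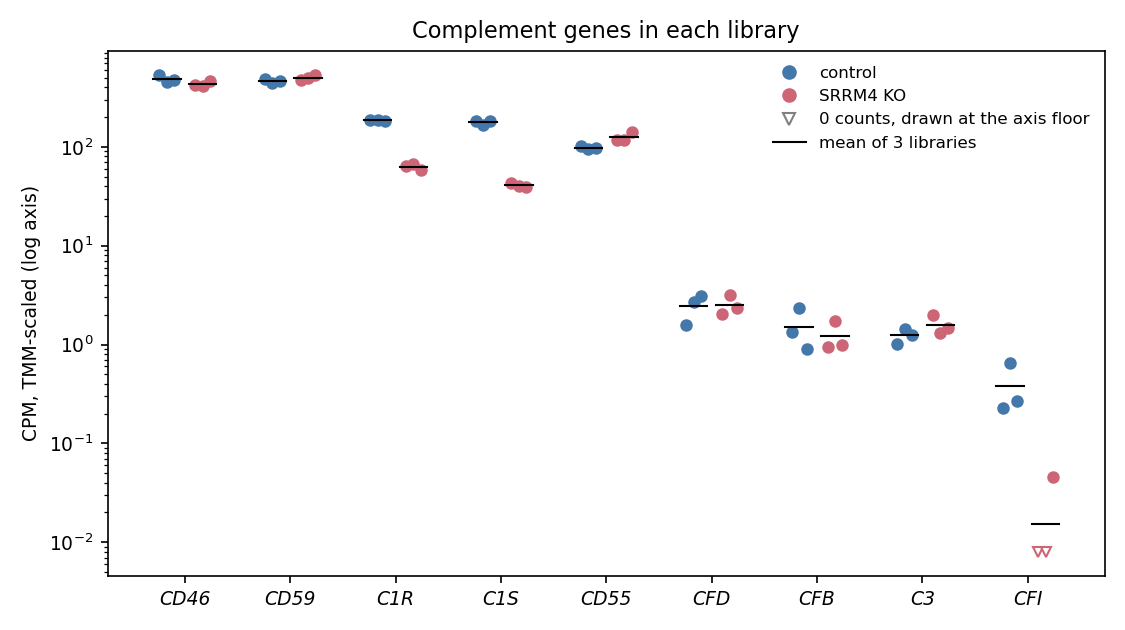
CPM scaled by the trimmed mean of M-values (TMM), on a log axis, of the 9 complement genes in each of 3 control and 3 SRRM4 KO libraries, with the group mean as a line; libraries with 0 counts are drawn as open triangles at the axis floor. C1R and C1S separate into a high control and a low SRRM4 KO group, CD55 separates by less with the SRRM4 KO libraries higher, and CFD, CFB and C3 lie far below and overlap.

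C1R (ENSG00000159403; chr12:7080199-7092607, minus strand) encodes the protease that activates C1s. It had 4081, 4048 and 4123 counts in the controls and 1425, 1627 and 1284 counts in the SRRM4 KO libraries. The groups did not overlap, and every SRRM4 KO library was below every control. In CPM the level was 187 ± 1.89 in the controls and 63.0 ± 4.30 in the SRRM4 KO cells (mean ± SD, n = 3 each). The log2 fold change was -1.57 (SE 0.085, edgeR adjusted p = 1.81e-09), which is 2.96-fold lower with a 95% interval of 2.61 to 3.36.

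C1S (ENSG00000182326; chr12:6988259-7071032, plus strand) encodes the protease that cuts C4 and C2. Its counts were 3942, 3564 and 4098 in the controls and 951, 981 and 861 in the SRRM4 KO libraries. Again no SRRM4 KO library reached a control, and the 3 SRRM4 KO values lay close together. The level was 177 ± 10.1 CPM in the controls and 40.7 ± 1.82 CPM in the SRRM4 KO cells. The log2 fold change was -2.12 (SE 0.089, edgeR adjusted p = 1.17e-10), or 4.35-fold lower with a 95% interval of 3.81 to 4.96. C1S had the largest change among the 8 tested genes, and it and C1R kept their direction and passed the test under every alternative run.

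The products of C1R and C1S work in pairs, and their mRNAs did not fall by the same factor. The ratio of C1R to C1S counts was 1.04, 1.14 and 1.01 in the controls and 1.5, 1.66 and 1.49 in the SRRM4 KO libraries. The groups of ratios did not overlap, and the SRRM4 KO mean was 1.46 times the control mean (1.41 to 1.52 when each library was left out in turn). An exact two-sided permutation test gave p = 0.1, the smallest value that 3 libraries against 3 allow. Per kilobase of gene model, the ratio was 1.16 ± 0.0747 in the controls and 1.70 ± 0.104 in the SRRM4 KO cells. Part of each gene model is shared with another gene on the same strand, 11.4% of the C1R exonic bases with C1RL and 3.54% of those of C1S with EMG1. How reads in such stretches were counted is not given in the sources used here. C1RL had 291 to 467 counts and EMG1 440 to 557 counts per library.

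C1R and C1S are neighbours on chromosome 12, and no other tested gene within 1 Mb fell as far. With the 9 genes themselves left out, the median log2 fold change of the 49 tested genes within 1 Mb of C1R was -0.05, and that of the 48 within 1 Mb of C1S was -0.06. Of the 49 around C1R, 8 passed the test higher and 8 lower, where 20.7% of all tested genes were higher and 20.9% lower. Within 1 Mb none was as low as C1R, and the lowest was CD4 at -1.32, whereas within 5 Mb 4 of 98 genes were as low as C1R or lower and 3 of 99 as low as C1S or lower, down to -4.64. C1RL, a protease-like gene overlapping C1R, was at 20.9 CPM in the controls and 15.3 CPM in the SRRM4 KO cells (log2 fold change -0.45, edgeR adjusted p = 0.0128). C3AR1, the receptor for the C3a fragment, lies near the edge of the same window and rose, with a log2 fold change of 2.55. Over 5 Mb the medians were -0.05 for both, and over the 824 tested genes of chromosome 12 it was -0.05.

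**Figure D2:**
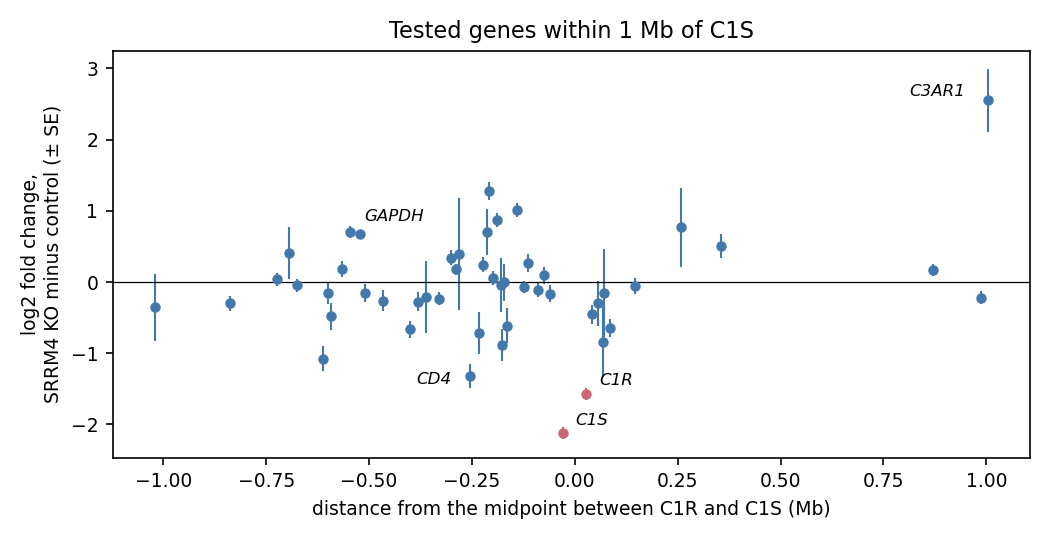
Log2 fold change (SRRM4 KO minus control, ± SE) of the tested genes within 1 Mb of C1S against the distance of their midpoints, in Mb, from the midpoint between C1R and C1S. C1S and C1R, in red, are the lowest points at -2.12 and -1.57, while most of their neighbours lie within 1 of zero and C3AR1 stands highest at 2.55.

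RefSeq promoter windows (GRCh38.p14; 250 bases before to 50 after a start) were found for 7 of the 9 genes, C1S and C3 having no entry. C1R has 2 starts, and 6 motifs were searched on both strands of each window: the CCAAT box spelled by its name, the GC box with the letters GGGCGG, the TATA box with the letters TATAAA, the element TTCNNNGAA that STAT factors can bind, the AP-1 element with the letters TGANTCA, and the NF-kB consensus. The 120 bases before the downstream C1R start and before the CD55 start are shown because these genes passed the test and have an entry with a match, which is in capitals. The C1R stretch is chr12:7091894-7092013 on the minus strand and the CD55 stretch is chr1:207321558-207321677 on the plus strand.
C1R: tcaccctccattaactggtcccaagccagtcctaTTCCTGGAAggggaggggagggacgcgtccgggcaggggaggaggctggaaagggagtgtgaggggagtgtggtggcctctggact
CD55: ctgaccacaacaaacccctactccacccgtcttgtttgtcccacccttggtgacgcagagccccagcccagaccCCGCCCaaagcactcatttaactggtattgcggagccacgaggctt
The C1R match to TTCNNNGAA lies at -86 to -78 from the start, and the upstream C1R start had no match to any of the 6 motifs. The CD55 match is a GC box on the opposite strand, at -46 to -41. CFB had TTCNNNGAA at -92 to -84 and TATAAA at -30 to -25, although its level did not pass the test. CD59, which did not pass it either, had TTCNNNGAA at a single site that falls in the overlapping windows of 2 of its 4 starts, at -128 to -120 or -184 to -176 depending on the start. Among all 35116 promoter windows, 7.66% held TTCNNNGAA, 45% held GGGCGG and 11.5% held TATAAA. These letter matches are descriptions and not measured binding sites.

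The central component and the alternative pathway genes were at the low end in both cell types. C3 (ENSG00000125730; chr19:6677704-6730562, minus strand), whose product is cut by every pathway, had 22, 31 and 28 counts in the controls and 44, 32 and 32 in the SRRM4 KO libraries. The ranges in CPM overlapped, and the log2 fold change of 0.35 had a 95% interval of -0.48 to 1.19 (edgeR adjusted p = 0.51). CFB (ENSG00000243649; chr6:31945650-31952084, plus strand), the gene of the protease factor B, had 29, 50 and 20 counts against 21, 42 and 22. Its groups overlapped over most of their range, with a log2 fold change of -0.30 and an interval of -1.28 to 0.67 (edgeR adjusted p = 0.634). CFD (ENSG00000197766; chr19:859643-863630, plus strand), the gene of factor D, had 34, 58 and 69 counts against 45, 78 and 51, and the log2 fold change was 0.04 (interval -0.66 to 0.74, edgeR adjusted p = 0.939). These intervals are wide: for C3 they include a rise of 2.28-fold and for CFB a fall of 2.43-fold, while a fall of the size of C1R lies outside all 3 intervals. In CFB, 45.0% of the exonic bases are also annotated to AL645922.1, a gene with 0 counts in every library, and how such reads were counted is not given.

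CFI (ENSG00000205403; chr4:109740694-109802179, minus strand), which encodes the protease that inactivates C3b and C4b, was near the limit of detection. It had 5, 14 and 6 counts in the controls and 0, 0 and 1 in the SRRM4 KO libraries, so the groups did not overlap, but the gene was under the filter and was not tested in the main fit. Summed over libraries, 25 counts stood against 1, a ratio of 26.2 after scaling, with an exact 95% interval of 4.29 to 1075 that covers counting error only. Without a filter, edgeR gave a log2 fold change of -4.26 (SE 1.59, adjusted p = 0.0325), and DESeq2 gave -4.61 (SE 1.69, adjusted p = 0.0228). Of its exonic bases, 32.0% are shared with AC126283.2, which had 0 counts throughout.

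The membrane regulators were the most abundant of the 9 genes in the SRRM4 KO cells. CD55 (ENSG00000196352; chr1:207321376-207386804, plus strand), the decay-accelerating factor, had 2215, 2040 and 2192 counts in the controls and 2617, 2882 and 3116 in the SRRM4 KO libraries. All 3 SRRM4 KO libraries were above all controls, and replicate 3 was the highest of them. The level was 98.3 ± 3.76 CPM against 126 ± 13.7 CPM, a log2 fold change of 0.36 (SE 0.093, edgeR adjusted p = 0.0063) or 1.28-fold higher with a 95% interval of 1.11 to 1.47. Without SRRM4 KO replicate 3 the log2 fold change was 0.25 and no longer passed (edgeR adjusted p = 0.0535).

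CD59 (ENSG00000085063; chr11:33703010-33736491, minus strand), the inhibitor of the membrane attack complex, had 10490, 9517 and 10244 counts in the controls and 10488, 12066 and 11810 in the SRRM4 KO libraries. In CPM the groups overlapped, 461 ± 21.3 against 501 ± 33.3, with a log2 fold change of 0.12 (interval -0.04 to 0.28, edgeR adjusted p = 0.232). It passed only without control replicate 1, at 0.15 (edgeR adjusted p = 0.0466). CD46 (ENSG00000117335; chr1:207752057-207795513, plus strand), the cofactor for factor I, had 11682, 9775 and 10512 counts against 9504, 10110 and 10148. The level was 488 ± 45.1 against 434 ± 24.0 CPM with overlapping ranges, and the log2 fold change was -0.17 (interval -0.34 to 0.01, edgeR adjusted p = 0.116). The intervals of CD46 and CD59 are narrow, and neither includes the change measured for CD55. The interval of CD55 itself, 0.16 to 0.55 on the log2 scale, overlaps that of CD59 but not that of CD46. Whether these genes differ from each other in their change was not tested. CD46 and CD55 both lie on the long arm of chromosome 1, where the median log2 fold change of tested genes within 1 Mb was 0.26 around CD46 and 0.18 around CD55, and 10 of the 14 neighbours of CD55 were as low as CD55 or lower. Around CD59 it was 0.37, with 8 of 14 neighbours rising and 0 falling, where 20.7% of all tested genes rose and 20.9% fell. Within 5 Mb the medians were -0.04 around CD46, -0.10 around CD55 and 0.19 around CD59, so the sign for CD46 and CD55 depended on the window.

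**Figure D3:**
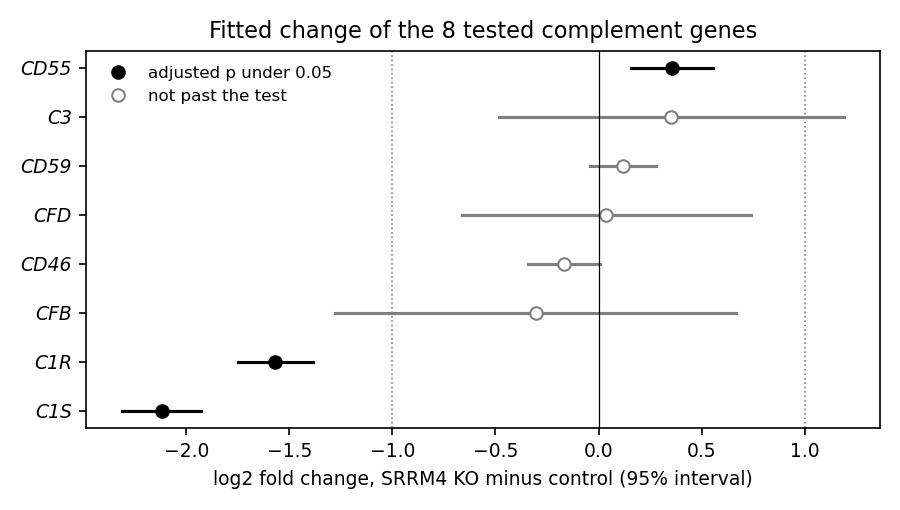
Log2 fold change (SRRM4 KO minus control) of the 8 tested complement genes with 95% intervals from edgeR's quasi-likelihood fit; filled points passed an adjusted p of 0.05 and dotted lines mark a log2 fold change of 1 in either direction. C1S and C1R lie wholly below -1, CD55 lies above 0, and the intervals of the low-count genes C3, CFB and CFD are the widest.

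Levels between genes were compared as CPM per kilobase of gene model (all annotated exons joined). In the controls CD46 (56.0 ± 5.18) and CD59 (44.6 ± 2.05) were highest, followed by C1R (31.8 ± 0.322), C1S (27.4 ± 1.56) and CD55 (16.6 ± 0.637). In the SRRM4 KO cells CD46 (49.9 ± 2.75) and CD59 (48.4 ± 3.22) differed by less than their spread, CD55 (21.3 ± 2.32) came next, and C1R (10.7 ± 0.731) and C1S (6.30 ± 0.281) had moved below it. By their means, CFD, CFB, C3 and CFI were last in that order in both groups, with CFD at 2.01 and 2.06 and C3 at 0.148 and 0.19 CPM per kilobase. In the SRRM4 KO cells CFB (0.245 ± 0.0872) and C3 (0.19 ± 0.0418) differed by less than their spread. Of the summed level of the 9 genes, C1R and C1S made up 32.0% to 33.6% in the controls and 10.9% to 13.1% in the SRRM4 KO libraries, while the membrane regulators went from 64.7% to 67.1% up to 84.8% to 87.6%. These shares are parts of a whole, so the rise of the regulators' share includes the fall of the proteases.

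The rest of the complement system was described with a list of 48 further genes, of which 32 had a count and 17 were tested. Among these 17, 2 were higher, 9 were lower and 6 did not pass the test, where 20.7% of all tested genes were higher and 20.9% lower, and the median log2 fold change was -0.70 beside -0.01 for all tested genes. Beyond a log2 fold change of 1, C3AR1 was higher and MASP1, C4A, SERPING1, VTN and C5AR2 were lower, beside 5.45% higher and 7.14% lower among all tested genes. C3AR1, C4A, VTN and C5AR2 passed the filter through the group where they were high, and the counts and median above include them. With at least 10 counts in every library, 10 genes were tested. Of these, 1 was higher and 6 lower, and beyond a log2 of 1 it was 0 and 2. The recognition molecules that start the classical and lectin pathways, among them the C1q chains, gave no tested gene among 10, and none had more than 7 counts in a library.

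Among the proteases and C4, 3 of 5 tested genes fell (20.9% of all tested genes did), and C4A and C1RL lost their call when some single libraries were left out. MASP1, a lectin pathway protease related to C1R, had 198, 165 and 154 counts in the controls and 10, 28 and 20 in the SRRM4 KO libraries, a log2 fold change of -3.22 (SE 0.296, edgeR adjusted p = 4.83e-07). C4A, a substrate of C1s, had 12, 31 and 23 counts against 8, 7 and 0, a log2 fold change of -2.18 (edgeR adjusted p = 0.0268). C4A is nearly identical to C4B, which was at -0.70 (edgeR adjusted p = 0.366; -1.38 without SRRM4 KO replicate 1 and -0.26 without SRRM4 KO replicate 3), so the split of reads between them is uncertain, and C4A did not pass when control replicate 2 or 3 or SRRM4 KO replicate 2 or 3 was left out (edgeR adjusted p 0.0532 to 0.122). C1RL did not pass without SRRM4 KO replicate 3 (edgeR adjusted p = 0.0594). MASP2 was at 0.09 (edgeR adjusted p = 0.921) and ranged from -0.31 (without control replicate 3) to 0.78 (without control replicate 2). C2, the other C1s substrate, was under the filter with 18, 10 and 5 against 7, 2 and 6 counts.

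Of the soluble regulators, 3 of 5 tested genes fell, beside 20.9% of all tested genes. SERPING1, which encodes the C1 inhibitor that blocks C1r and C1s, had 271, 217 and 232 counts in the controls and 22, 44 and 63 in the SRRM4 KO libraries, 5.82-fold lower with a 95% interval of 3.87 to 8.77 (edgeR adjusted p = 2.93e-06). C1R, C1S and the gene of their inhibitor were thus all lower in the same libraries. VTN, the gene of vitronectin, which keeps terminal complexes soluble, went from 88, 68 and 97 counts to 7, 0 and 6 (log2 fold change -4.30, SE 0.55, edgeR adjusted p = 1.58e-05; -3.70 without SRRM4 KO replicate 2). CLU, the gene of clusterin, fell from 170 to 108 CPM (log2 fold change -0.65, edgeR adjusted p = 1.60e-05).

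The receptors went in both directions. C3AR1 had 29, 17 and 4 counts in the controls and 95, 105 and 109 in the SRRM4 KO libraries, 5.85-fold higher with a 95% interval of 3.06 to 11.2 (edgeR adjusted p = 0.000252). Its log2 fold change of 2.55 became 3.21 without control replicate 1 and 2.08 without control replicate 3, and passed the test in each case. The C5a receptor genes fell, C5AR1 from 186, 178 and 278 to 123, 131 and 127 counts (log2 fold change -0.81, edgeR adjusted p = 0.00291). C5AR2 went from 73, 51 and 117 to 16, 4 and 3 counts (log2 fold change -3.42, SE 0.532, edgeR adjusted p = 0.000101), and was at -4.56 without SRRM4 KO replicate 1. ITGB2, the beta chain of the integrin complement receptors, fell from 43.7 to 23.6 CPM (log2 fold change -0.89, edgeR adjusted p = 2.95e-05). Of its partner chains, ITGAM was not tested. It had 5, 14 and 13 counts in the controls and 0 in every SRRM4 KO library, at least 3.71-fold lower when the SRRM4 KO group is set at 3 counts per library. The partner ITGAX was tested and did not pass (log2 fold change 0.15, edgeR adjusted p = 0.763). It ranged from -0.04 (without control replicate 2) to 0.31 (without control replicate 3). C1QBP, a mitochondrial protein that can bind C1q, rose from 66.3 to 79.2 CPM (log2 fold change 0.26, edgeR adjusted p = 0.0272), but did not pass when control replicate 2 or any 1 of the SRRM4 KO libraries was left out (edgeR adjusted p 0.0595 to 0.114), nor with the replicate number as a block (0.0623) or with no filter (0.0514). Of the terminal components only C5 was tested, and it did not pass (log2 fold change -0.33, edgeR adjusted p = 0.220). Fewer cells expressing a gene and less RNA per cell cannot be told apart in these bulk libraries.

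**Figure D4:**
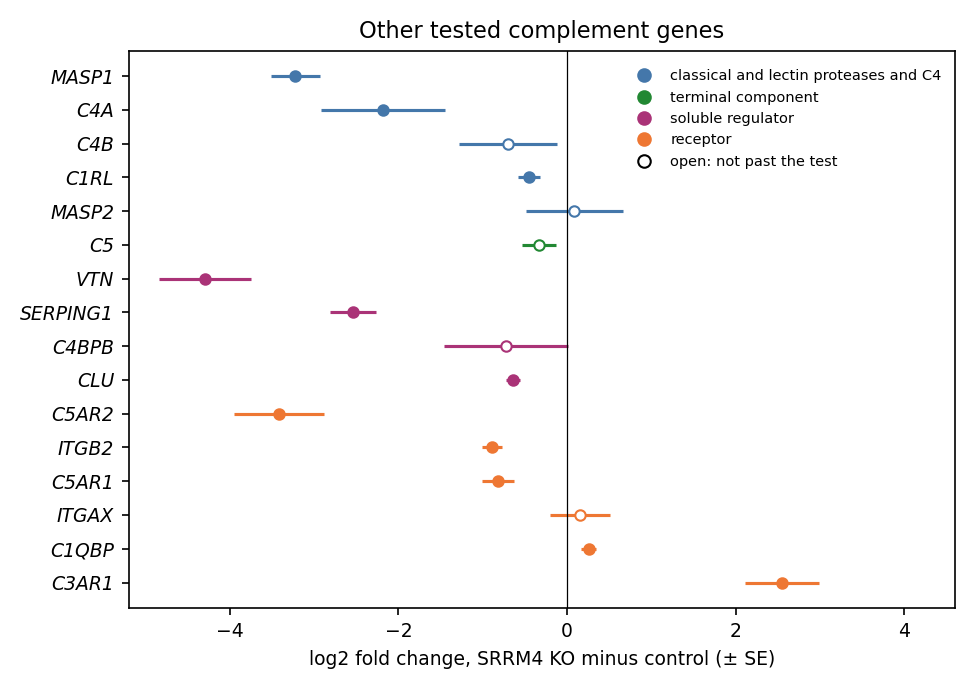
Log2 fold change (SRRM4 KO minus control, ± SE) of 16 of the 17 other tested complement genes, coloured by role, with open points for genes that did not pass an adjusted p of 0.05. Most filled points lie left of zero, from C1RL at -0.45 to VTN at -4.30, and C3AR1 at 2.55 and C1QBP at 0.26 are the filled points to the right.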

How the data were processed

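Non-stranded mRNA libraries from total RNA of 3 control and 3 SRRM4 KO UE7T-9 samples were sequenced on an Illumina instrument. The authors deposited raw read counts per gene. The submitters' processing notes name HISAT2 2.0.5, featureCounts 1.5.0-p3 and DESeq2, without role. The genome build and the featureCounts settings are not given in the sources used here. All 58735 gene IDs were found in GENCODE 29 (GRCh38), and 58724 had the same start and end. Gene positions and gene-model lengths were taken from the same deposited table.

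Counts were fitted with edgeR 4.0.16 in R 4.3.3: TMM scaling, filterByExpr, then the two-sided quasi-likelihood test (prior count 0.125), with Benjamini-Hochberg adjustment over 15341 genes. Standard errors and 95% intervals of log2 fold changes come from the same fit. CPM used TMM-scaled library sizes. Alternatives were DESeq2 1.42.0, its size factors, upper-quartile scaling, protein-coding genes only, omission of the filter, a minimum of 10 counts per library, a replicate block, and each library left out in turn. On counts simulated for this comparison over 15341 genes, of which 15042 passed the filter and were run, edgeR recovered 29 of 67 genes changed by a log2 of 0.5, 60 of 67 changed by 1 and 65 of 66 changed by 2, and called 16 of 15141 unchanged genes (genes under the filter included as not called).

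The 9 genes and the gene lists were chosen with earlier results of these data known. Text names all 9 genes; of the other complement genes, those past the test with a log2 fold change beyond 1 and those tested with a mean of at least 10 CPM; of the glycosylphosphatidylinositol (GPI) anchor and acute-phase lists, up to 4 genes past both thresholds and the 2 of highest mean CPM; and the 3 genes most like C1S. Some genes under this rule are not reported here. C4B, MASP2, C5, C5AR1, C2, ITGAM and ITGAX in the text, CD4, the overlapping genes and the marker genes were named after their values were seen. Intervals of counts cover counting error only.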

Additional observations from a re-analysis of the deposited data

How the results depend on the processing

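C1R stayed between -1.62 and -1.52 and C1S between -2.17 and -2.09 (log2) over 13 alternatives, with edgeR or DESeq2 adjusted p up to 1.23e-07 and 9.62e-09. CD55 ranged from 0.25 to 0.40. With libraries left out in turn, the count of complement genes higher in the SRRM4 KO cells ranged from 0 (without SRRM4 KO replicate 3) to 2 (without control replicate 1), against 1. The lower count was 3 with no filter and with DESeq2, where CFI was tested. With libraries left out, CFB ranged from -0.65 to 0.13, turning positive without control replicate 2, and CFD from -0.20 (without control replicate 1) to 0.24, also negative without SRRM4 KO replicate 2 (-0.18). Of the other complement genes, 1 was higher with no filter, with at least 10 counts and with the replicate block, against 2, and 1 to 2 with libraries left out. At least 10 counts left 0 higher and 2 lower beyond a log2 of 1, against 1 and 5, as fewer genes were tested, and leaving out libraries gave 1 to 2 higher. Higher acute-phase genes numbered 0 with upper-quartile scaling and with the replicate block, against 1, and 0 to 1 with libraries left out; the lower ones beyond a log2 of 1 numbered 1 to 2. Lower GPI genes numbered 0 to 3 with libraries left out, 0 without control replicate 3 or SRRM4 KO replicate 2 and 1 without SRRM4 KO replicate 1. The cause was not tested. Same-numbered libraries had correlated deviations of -0.05, 0.08 and -0.05, and libraries of unlike number -0.11 to 0.16. No pairing by number showed, but 3 libraries per group cannot exclude one. The replicate block left 1 complement gene higher and 2 lower. Over all genes, counts ranged from 2556 to 3563 higher and 2750 to 3470 lower, and beyond a log2 of 1 from 624 to 916 and 765 to 1243. C3, CFB, CFD and CFI stayed under 80 counts per library, and the control libraries of CFB and CFD spread by 48.0% and 32.2% of their mean (CV).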

Other observations

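CD55 and CD59 are held in the membrane by a GPI anchor, and the genes that build this anchor were described with a list of 28 genes, 27 of them tested. Of these, 6 were higher in the SRRM4 KO cells, 3 were lower and 18 did not pass the test, and 0 passed a log2 fold change of 1. The median log2 fold change was -0.03. The most abundant were PIGT, a subunit of the transamidase that attaches the anchor, which fell by 0.25 on the log2 scale (246 to 208 CPM, edgeR adjusted p = 0.015, but 0.0511 to 0.058 without control replicate 3 or SRRM4 KO replicate 2 or 3), and GPAA1 of the same enzyme, at 0.24 (240 to 283 CPM, edgeR adjusted p = 0.0714). Among all tested genes, 20.7% were higher and 20.9% lower, and beyond a log2 fold change of 1 these shares were 5.45% and 7.14%.

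C3, CFB, C1R and C1S are known as genes induced in inflammation, so other acute-phase genes and inducers were counted as well. The list held 25 entries, a symbol with more than 1 gene ID being counted once per ID. Of these entries, 17 were tested: 1 was higher, 4 were lower and 12 did not pass, beside 20.7% higher and 20.9% lower among all tested genes. PTX3, a secreted pattern recognition protein, was the only gene past a log2 fold change of 1, at -1.44 (48.7 to 18.0 CPM, edgeR adjusted p = 5.34e-08). Of all tested genes, 7.14% passed this limit in the lower direction and 5.45% in the higher. STAT3, a transcription factor of the acute-phase response, was at 269 CPM in the controls and 246 CPM in the SRRM4 KO cells and did not pass (log2 fold change -0.13, edgeR adjusted p = 0.182). The median of the list was -0.05.

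Markers of further cell types were summed in the same libraries, in which 20.7% of all tested genes were higher and 20.9% lower in the SRRM4 KO cells. Endothelial markers summed to 22.7 to 26.1 CPM in the controls and 4.43 to 5.86 CPM in the SRRM4 KO cells, with KDR and TEK lower among 3 tested of 6, and with PECAM1 at no more than 3 counts. Adipocyte markers summed to 11.5 to 13.6 and 20.6 to 25 CPM, with PPARG higher among 2 tested of 7 and ADIPOQ, LEP and CIDEC at 0. Epithelial markers summed to 97.6 to 119 and 101 to 108 CPM, with KRT8 lower among 3 tested of 6. Their part in the complement results was not tested.

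Among 133 protein-coding genes whose log2 fold change lay within 0.25 of that of C1S, the most similar over the 6 libraries were CORO6, CXCL12 and ADAMTS2, each with a Pearson r of 0.998 of log2 CPM. Since the libraries form 2 separate groups, this value mainly restates the shared difference between them and is given as a description.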
